A study of Mus musculus with 67 samples.

Results

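The 53 genes described here are the amino acid and taurine transporters of mouse preimplantation embryos, taken from 26414 genes in the expression table. They were chosen by symbol alone, as all members of the Slc1, Slc3, Slc6, Slc7, Slc36, Slc38 and Slc43 families other than pseudogenes. RNA of 67 libraries was measured by SMART-seq2, a full-length method for single cells. Embryos were C57BL/6 and came from in vitro fertilization of oocytes of 6-week-old females with sperm of 10-week-old males. Embryos of the light group received 5000 lx during 6 h as 2-cell embryos before they went back to darkness, where those of the control group stayed throughout. Control and light libraries numbered 7 and 6 for 2-cell embryos, 6 and 8 for 4-cell embryos, 4 and 8 for 8-cell embryos, 13 and 6 for morulae, and 3 and 6 for blastocysts. The labels number an embryo for each library and the study's methods describe single cells picked from dissociated embryos, so several libraries of a group may come from the same embryo, and p-values measure only the spread between these libraries.

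Cells take up amino acids and related solutes such as taurine, glycine, proline and creatine through these membrane carriers. Many Slc6 carriers and the Slc1 carriers move their substrate together with sodium, and the embryo before implantation is known to use glycine, taurine and proline also as osmolytes that hold its cell volume. The Slc7 light chains carry the transport activity of a pair whose partner is a heavy chain, Slc3a2 or Slc3a1, which brings the light chain to the cell surface.

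Levels are given as CPM, the reads of a gene per 1000000 reads outside CT010467.1 and Gm42418, a pair of genes that lie over ribosomal RNA. Reads outside those genes numbered 318177 to 2867034 per library (median 1194289), while the ribosomal pair took 54.0% to 89.3% of each library. A library of median depth therefore gives 1 read for a little under 1 CPM, and levels of a few CPM rest on a few reads. A gene was called when its adjusted p was under 0.05 and its fold change at least 2 on log2(CPM + 1), with limma and Benjamini-Hochberg adjustment over all genes tested. Differences are given as log2 of CPM + 1 with their standard error (SE), and they understate the change of low genes.

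Some libraries stood apart before any transporter was compared. The ratio of Gm42418 to CT010467.1 was 2.34 to 4.03 in control and 1.58 to 1.77 in light 2-cell libraries, and it did not overlap at the 8-cell and morula stages either. In the control 4-cell group, libraries 1 and 2 had ratios of 4.55 and 4.35 and the other 4 had 1.61 to 1.98. Reads of 4 Y-linked genes were at least 20 in all 8 light 4-cell and all 6 light blastocyst libraries, in 4 of 6 control 4-cell libraries, and in none of the 4 control 8-cell, 13 control morula and 3 control blastocyst libraries. Group, sex of the embryo and whatever sets the ribosomal ratio cannot be told apart where they coincide. Genes of the 2-cell stage summed to 58.7 to 424 CPM in the control 8-cell libraries, against 0.894 to 92.6 CPM in the light ones. Markers of cumulus cells reached at most 50.3 CPM and those of sperm 8.65 CPM, summed over each list. How these lists went with the transporters was not tested.

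Of the 53 genes, 5 had reads in every library and 2, Slc6a17 and Slc6a18, had none in any. A mean of at least 100 CPM in some group was found for 10 of them, and 19 stayed under 10 CPM in every group. Slc36a4 is not in the table used here. The rule also takes in Slc6a3 and Slc6a4, carriers of dopamine and serotonin, and the opposite-strand genes Slc7a6os and Slc36a3os, which code for no carrier.

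**Figure D1:**
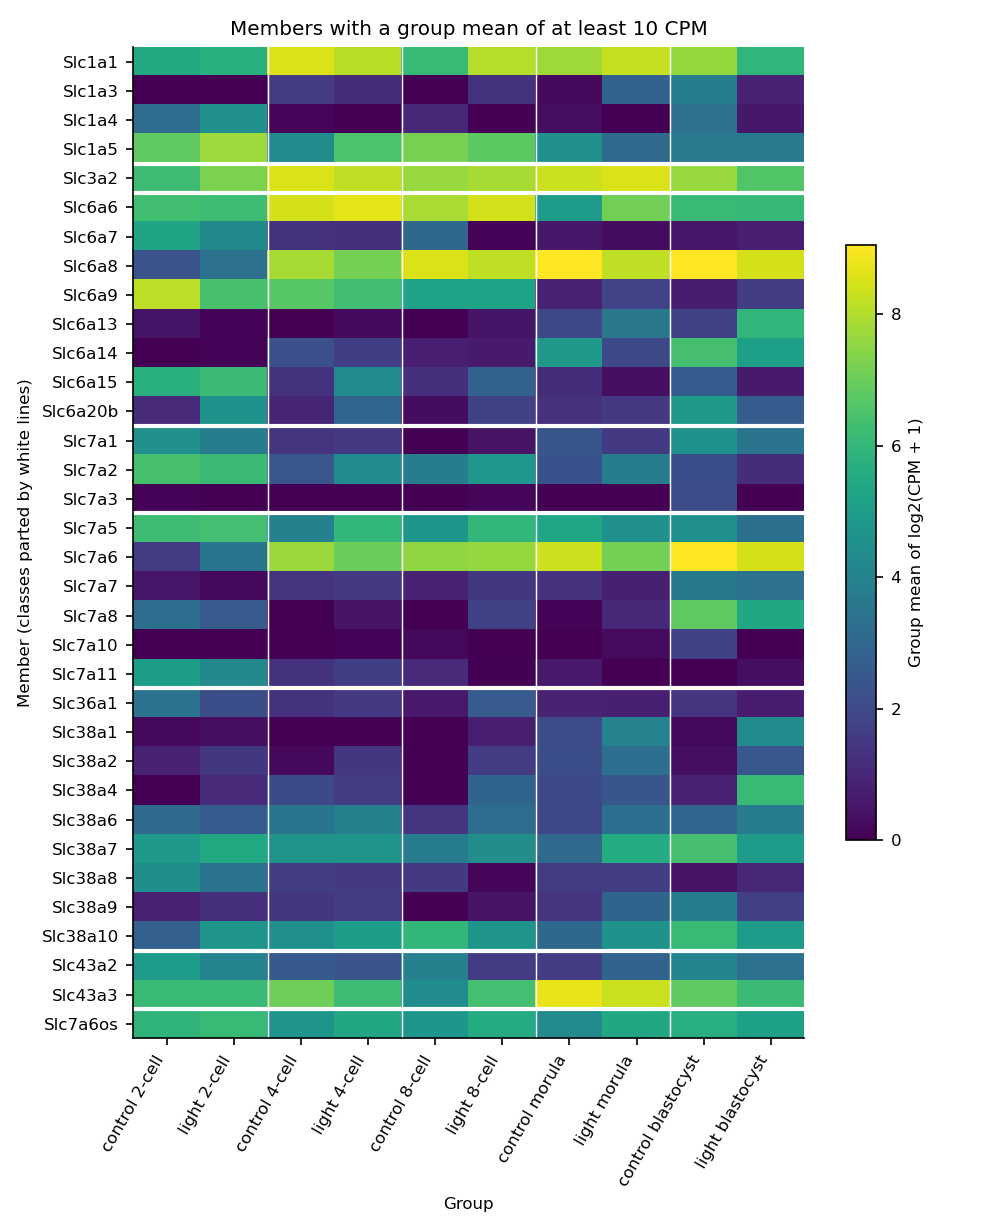
Mean of log2(CPM + 1) in each of the 10 groups (columns) for the 34 transporter genes with a group mean of at least 10 CPM (rows, parted by class with white lines). Slc3a2 and Slc7a6 are among the high genes from the 4-cell stage on, while the row of Slc6a9 goes from high in 2-cell embryos to near 0 in blastocysts.

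Per kb of exon, the control 2-cell stage was led by Slc6a9, the glycine carrier GLYT1, at 58.9 CPM per kb. Slc1a5, a carrier of glutamine and other neutral amino acids, followed at 29.2, Slc3a2 at 22.4, Slc7a5, a light chain for large neutral amino acids, at 21.8 and Slc43a3 at 15.6. At the 4-cell stage Slc3a2 led with 115.5 CPM per kb, ahead of the light chain Slc7a6 at 57.9, the glutamate carrier Slc1a1 at 53.6, the creatine carrier Slc6a8 at 53.4 and the taurine carrier Slc6a6 at 44.8. The 8-cell stage was headed by Slc6a8 (88.8) and Slc3a2 (63.8), and the morula by Slc6a8 (110.2), Slc43a3 (103.8) and Slc3a2 (100.9). In the blastocyst Slc7a6 came first with 126.5 CPM per kb, then Slc6a8 with 105.5 and Slc3a2 with 57.7. Their libraries vary widely, so neighbours in these orders are not shown to differ.

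The step from the 2-cell to the 4-cell stage in control embryos changed most of these genes. Of 35 tested, 24 were called, 9 higher and 15 lower, against 47.9% of all genes tested (17.7% higher, 30.2% lower). At an unadjusted p under 0.05 there were 29 of 35, against 55.6% of all genes. The median difference of the members tested was -1.18 and that of all genes -0.50. The genes that rose were Slc7a6, Slc6a8, Slc1a1, Slc3a2, Slc6a14, Slc6a6, Slc38a4, Slc38a10 and Slc1a3. Of these, Slc38a10 lost its call under 4 of 9 alternatives (adjusted p up to 0.107) and without control 4-cell library 3, and Slc38a4 under 2 of 7 (up to 0.0676).

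The heavy chain Slc3a2 and the light chain Slc7a6 were higher after this step, while the light chains Slc7a11, Slc7a5 and Slc7a8 were lower. Slc7a6, the y+LAT2 light chain that exchanges arginine for neutral amino acids, had 0 to 4.73 CPM (median 2.12) in 2-cell and 71.7 to 458 CPM (median 262) in 4-cell control libraries. The groups did not overlap, as was true of 21.9% of all genes tested, and the difference was 6.13 (SE 0.59, adjusted p = 5.87e-08). Slc3a2 itself had 38.6 to 146 CPM (median 80.6) and then 198 to 797 CPM (median 340), again without overlap, a difference of 2.33 (SE 0.37, adjusted p = 3.01e-05). Light chains of other substrates were lower. Slc7a11, the cystine exchanger, fell from a median of 32.3 to 0.443 CPM (difference -3.72, SE 0.72, adjusted p = 0.000232). Slc7a5 fell from 71.8 to 24.3 CPM (-2.24, SE 0.71, adjusted p = 0.0125). Slc7a8 had 12.3 CPM in the pooled 2-cell reads and no read in the 6 control 4-cell libraries, which makes it at least 37.5-fold lower against a floor of 3 reads over the group.

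The promoters of Slc3a2 and Slc7a6 are shown because this heavy chain and light chain rose together at this step. They are RefSeq windows on GRCm38.p6, 250 bases before to 50 after a start, 5′ to 3′ on the strand of the gene. That of Slc3a2 is at chr19:8713848-8714147 on the minus strand and that of Slc7a6, 1 of 2 for this gene, at chr8:106168604-106168903 on the plus strand. Capitals mark GGGCGG, the GC box, on either strand.
Slc3a2: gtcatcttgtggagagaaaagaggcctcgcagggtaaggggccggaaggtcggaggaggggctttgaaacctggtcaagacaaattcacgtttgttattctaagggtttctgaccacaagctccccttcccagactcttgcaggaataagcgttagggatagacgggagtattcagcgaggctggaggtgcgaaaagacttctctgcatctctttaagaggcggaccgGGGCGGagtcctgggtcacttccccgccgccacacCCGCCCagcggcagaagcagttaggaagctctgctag
Slc7a6: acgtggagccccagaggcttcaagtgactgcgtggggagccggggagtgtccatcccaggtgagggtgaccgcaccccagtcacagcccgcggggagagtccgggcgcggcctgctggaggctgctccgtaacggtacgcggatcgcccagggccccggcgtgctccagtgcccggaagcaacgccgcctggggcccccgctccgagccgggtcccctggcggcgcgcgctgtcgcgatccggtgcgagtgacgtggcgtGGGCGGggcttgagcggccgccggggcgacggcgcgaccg
The Slc3a2 window holds 2 such boxes and the Slc7a6 window 1. At least 1 is found in 35.7% of 32851 promoters of this length and in 50.8% of the 61 windows of the transporter genes. CCAAT, found in 37.4% of promoters, and TGATGNAAN, the core of the amino acid response element found in 3.95%, were searched on both strands and neither is in these windows. Of the 53 genes, 40 matched the table.

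Among carriers that depend on sodium and chloride, creatine and taurine carriers were higher at the 4-cell stage and several proline and neutral amino acid carriers lower. Slc6a8 had 0.691 to 14.0 CPM (median 5.99) in 2-cell and 102 to 690 CPM (median 222) in 4-cell control libraries, a difference of 5.55 (SE 0.62, adjusted p = 3.64e-07). Slc6a6 went from 57.3 to 98.6 CPM (median 87.1) to 158 to 558 CPM (median 380), a difference of 2.15 (SE 0.34, adjusted p = 2.45e-05). For both genes every 4-cell library lay above every 2-cell library. Slc6a15, a carrier of branched-chain amino acids and proline, had 28.6 to 110 CPM and then 0 to 8.73 CPM, without overlap (difference -4.42, SE 0.68, adjusted p = 1.86e-05). Slc6a7, the proline carrier PROT, fell from a median of 41.0 to 0 CPM (-3.98, SE 0.80, adjusted p = 0.000343), though control 4-cell libraries 1 and 5 kept 23.9 and 8.69 CPM. Slc6a9 fell from 157 to 428 CPM (median 306) to 37.3 to 251 CPM (median 113), with overlap (-1.47, SE 0.42, adjusted p = 0.00703). Ccdc24, on its opposite strand, was lower as well (-1.53, adjusted p = 0.0273).

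Cationic carriers were lower after this step. Slc7a2, a carrier of arginine and lysine, had 56.7 to 153 CPM in 2-cell and 0 to 29.4 CPM in 4-cell libraries (difference -3.98, SE 0.74, adjusted p = 0.000158). Slc7a1, the widespread arginine carrier, fell from a median of 31.7 to 0.731 CPM (-3.22, SE 0.82, adjusted p = 0.0029). Slc7a3, the third of these carriers, had a read in 1 control 2-cell library and in no 4-cell library of either group. Summed over the class, cationic carriers had a median of 141.7 CPM in control 2-cell and 14.8 CPM in control 4-cell libraries.

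The Slc1 family split at the same step. Slc1a1, the EAAT3 carrier of glutamate and aspartate, rose from 11.0 to 153 CPM (median 53.9) to 146 to 686 CPM (median 461), a difference of 3.08 (SE 0.54, adjusted p = 8.68e-05), and the groups met only in the highest 2-cell and the lowest 4-cell library. Its antisense gene 4430402I18Rik had a like difference at this step (3.02, adjusted p = 0.000588) and at the next (-2.34, adjusted p = 0.0521). Slc1a4, a carrier of alanine, serine and cysteine, had 101 reads in the 2-cell and 1 read in the 4-cell control libraries, a pooled ratio of 81.2 with a counting interval of 14.2 to 3240. Slc1a5 fell from a median of 132 to 37.7 CPM (-2.46, SE 0.81, adjusted p = 0.0162). That call was lost with edgeR, at an adjusted p of 0.111.

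Between the 4-cell and the 8-cell stage 1 of 26 members was called, a lower one, against 1.86% of all genes tested (1.26% higher, 0.601% lower). Groups that did not overlap made up 4.63% of all genes at this step. Slc1a1 had 125.4, 17.1, 70.6 and 151 CPM in the 4 control 8-cell libraries, against 146 to 686 CPM at the 4-cell stage. Library 4 reached into the 4-cell range and library 2 was the lowest. The difference was -2.43 (SE 0.55, adjusted p = 0.0221), and without control 8-cell library 2 it was no longer called.

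From the 8-cell stage to the morula 6 of 32 members were called, 3 higher and 3 lower, against 15.2% of all genes (6.23% higher, 8.96% lower). Slc43a3 and Slc6a6 did not overlap between these stages, beside 5.84% of all genes. Slc43a3, known as a carrier of purine nucleobases in a family whose other members carry large neutral amino acids, had 90.4 CPM or less in the 4 control 8-cell and 223 to 858 CPM (median 425) in the 13 morula libraries, a difference of 4.33 (SE 0.63, adjusted p = 2.91e-05). Slc6a14, a carrier of nearly all neutral and cationic amino acids, had a read in 1 of 4 control 8-cell libraries and in all 13 morula libraries (4.38 to 130 CPM, median 29.2). Its difference was 4.13 (SE 0.88, adjusted p = 0.00192). Slc1a1 rose by 1.63 (SE 0.42, adjusted p = 0.00836) to a median of 235 CPM, a call lost without control 8-cell library 2.

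The glycine carrier Slc6a9, the taurine carrier Slc6a6 and the proline carrier Slc6a7 were lower in the morula. Slc6a9 had 9.86 to 97.1 CPM (median 43.1) in the control 8-cell group and 0 to 14.6 CPM (median 0.782) in the morula group, where 7 of 13 libraries had a read (difference -4.35, SE 0.82, adjusted p = 0.000543). The groups met only at the edge, where 1 morula library passed the lowest 8-cell library. Ccdc24 and Gm17114, on the opposite strand over 27.8% and 9.94% of the Slc6a9 exon bases, were lower as well (-2.89 and -3.41). Slc6a6 had 164.8, 143.3, 366.0 and 356.8 CPM in the 8-cell libraries and 2.63 to 94.2 CPM (median 39.1) in the morula libraries, without overlap (-2.92, SE 0.65, adjusted p = 0.00283). Slc6a7 was lower too (-2.46, SE 0.74, adjusted p = 0.0250), and it lost its call without control 8-cell library 1 or 4 and with edgeR (adjusted p = 0.167).

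In control blastocysts 5 of 35 members differed from the morula, 4 higher and 1 lower, against 13.2% of all genes (7.77% higher, 5.39% lower). Slc7a8 and Slc43a3 did not overlap, beside 8.77% of all genes. The 3 control blastocyst libraries differed in lineage: markers of the inner cell mass summed to 4199, 1939 and 404.7 CPM in libraries 1, 2 and 3, and those of the trophectoderm to 941.8, 3971 and 8443 CPM. Slc7a8, a light chain for small and large neutral amino acids, had 63.4 to 225 CPM in these 3 libraries and a single read in the 13 morula libraries, a difference of 6.70 (SE 0.60, adjusted p = 1.01e-07). Slc1a4, at 19.4 CPM in 1 of 13 morula libraries and 0 in the rest, was at 7.46 to 11.8 CPM (3.09, SE 0.72, adjusted p = 0.00497), a call lost with edgeR (adjusted p = 0.31). Slc1a3, a glial glutamate carrier, had 34.3, 38.7 and 0.876 CPM in libraries 1, 2 and 3, and its difference was 3.54 (SE 0.77, adjusted p = 0.00273). Slc6a20b, a gene of the Slc6 family, was higher by 3.58 (SE 1.13, adjusted p = 0.0378), a call lost under 6 of 9 alternatives and without any 1 of the 3 blastocyst libraries. Those 9 include the replicate block, which called no gene at this step. Sacm1l, on the opposite strand over 21.1% of the Slc6a20b exon bases, was higher as well (3.84, adjusted p = 0.0311). Slc43a3 fell to 71.0 to 172 CPM, below every morula library (-1.91, SE 0.38, adjusted p = 0.00125). The part of lineage in these differences was not tested.

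**Figure D2:**
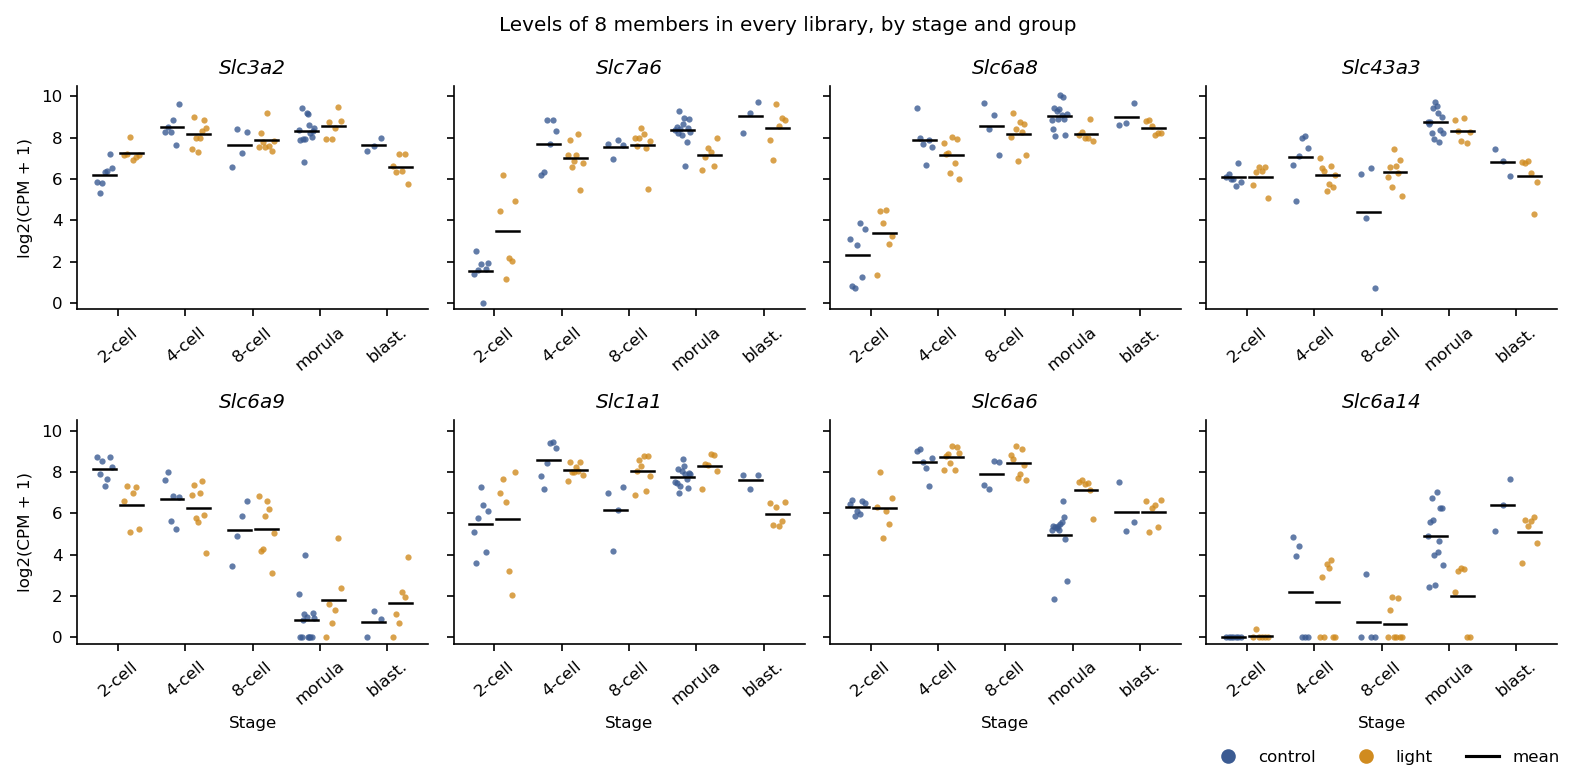
log2(CPM + 1) of 8 transporter genes in each library (points) by stage, for the control (blue) and light (orange) groups, with group means as black bars. Control libraries of Slc3a2, Slc7a6 and Slc6a8 are higher in 4-cell than in 2-cell embryos. For Slc6a9, 6 of 13 control morula libraries are at 0, and control libraries of Slc6a6 lie lower in morulae than in 8-cell embryos.

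Light against control asks whether exposure at the 2-cell stage went with other transporter levels at that stage and after it. Each light comparison shares its control libraries with the stage steps above. At the 2-cell stage 4 of 36 members tested were called, against 12% of all genes. These were 3 higher and 1 lower, where 6.94% and 5.02% of all genes went these ways. Among 4-cell embryos 1 of 29 was called, a higher one (2.15% of all genes, 1.69% higher and 0.466% lower). Among 8-cell embryos 1 was higher and 1 lower of 27 (8.49% of all genes, 4.83% higher and 3.66% lower). Morulae had 2 higher and 2 lower of 36 (1.59% of all genes, 0.847% higher and 0.742% lower), and blastocysts 3 higher and 1 lower of 34 (1.9% of all genes, 1.03% higher and 0.865% lower). At an unadjusted p under 0.05 there were 8 of 36 members in 2-cell embryos (27.5% of all genes), 5 of 29 in 4-cell embryos (18.7%), 8 of 27 in 8-cell embryos (24.5%), 7 of 36 in morulae (17.6%) and 12 of 34 in blastocysts (14.8%). Median differences of the members tested were 0.12, 0.11, 0.83, 0.44 and -0.63 in that order, beside 0.05, 0.17, 0.08, 0.25 and -0.04 over all genes. Of the genes called, 46.7% were lower in light morulae and 45.5% in light blastocysts, against 69.3% and 93.7% with the values as deposited, where the median difference of all genes was 0.10 and -0.59.

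**Figure D3:**
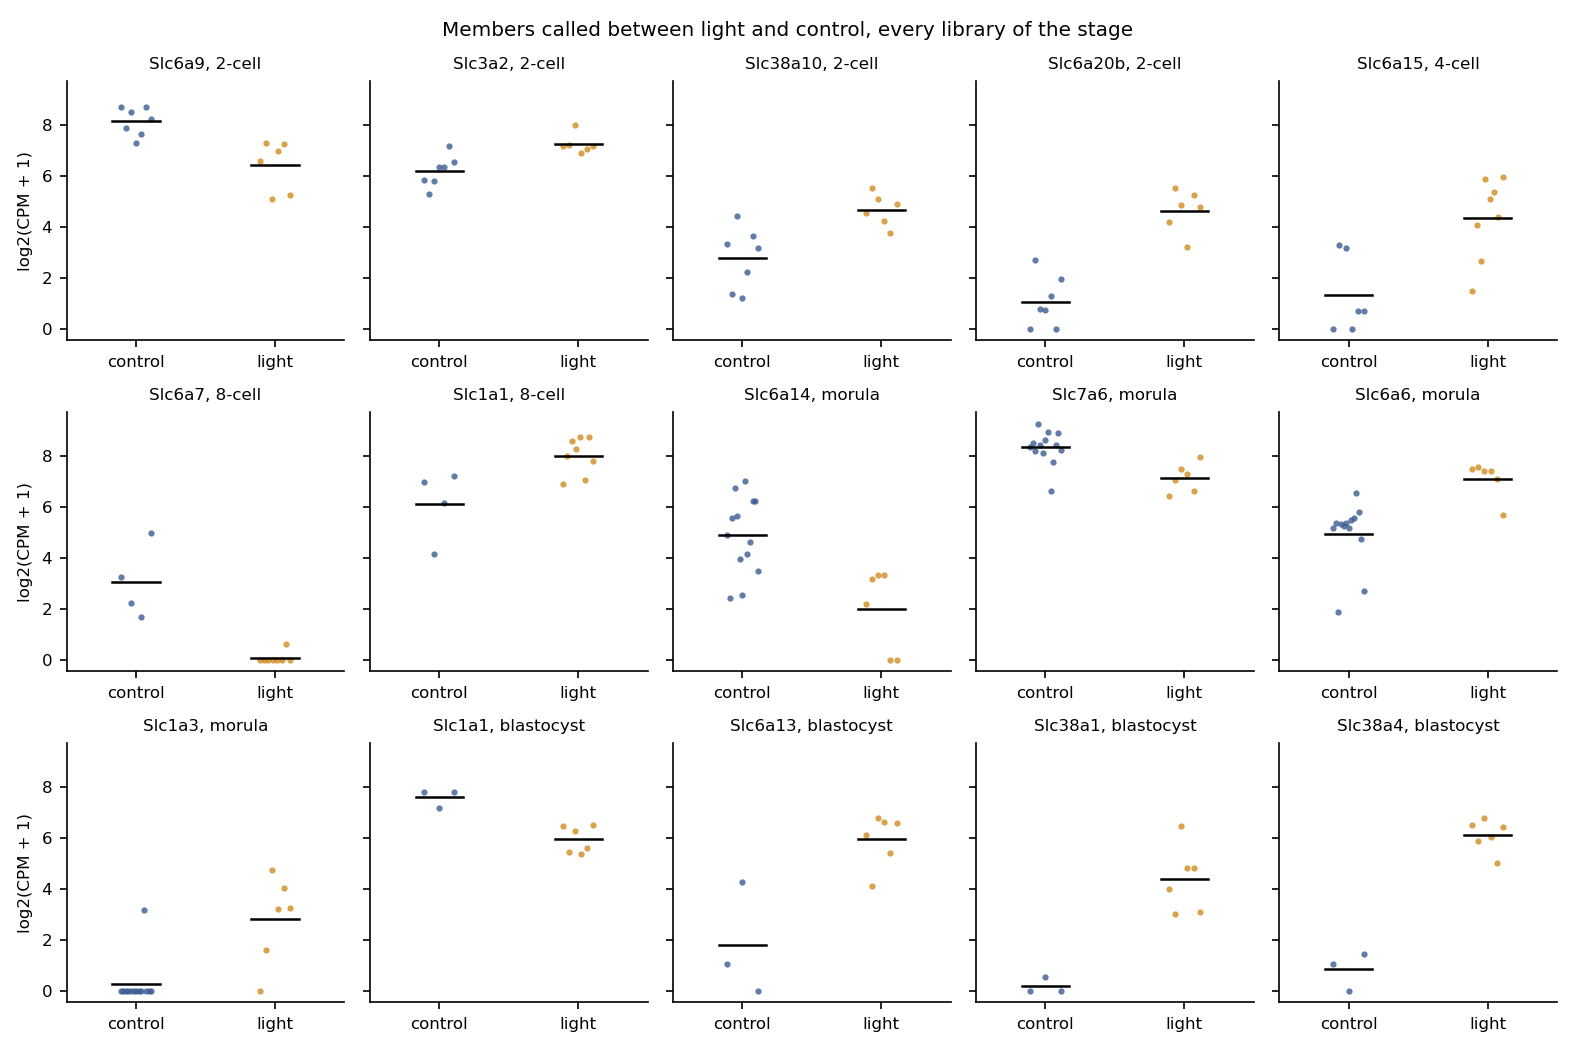
log2(CPM + 1) of each transporter gene called between light (orange) and control (blue) at the stage in its title, 1 point per library and the group mean as a black bar. The groups do not overlap for Slc6a20b at the 2-cell stage, Slc6a7 at the 8-cell stage and Slc1a1, Slc38a1 and Slc38a4 in the blastocyst.

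At the 2-cell stage the glycine carrier was lower and Slc6a20b, a gene of the Slc6 family, higher in light-exposed embryos. Slc6a9 had 157 to 428 CPM (median 306) in the 7 control and 33.3 to 160 CPM (median 111) in the 6 light libraries. A single light library, number 12, lay above the lowest control library. The difference was -1.73 (SE 0.36, adjusted p = 0.00164), a call that held in each of the 13 fits that left out 1 library. With 1 fit over all libraries its adjusted p was 0.0682. Ccdc24, a gene on the opposite strand over 27.8% of the exon bases of Slc6a9, was lower as well (-2.40, adjusted p = 0.000197), and without knowing how strand was counted the reads of the pair cannot be told apart. Markers of maternal oocyte RNA, all 8 detected, summed to 2823 to 6894 CPM in control and 1101 to 2749 CPM in light 2-cell libraries, and their part in this difference was not tested.

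Slc6a20b had 0 to 5.52 CPM (median 0.691) in control and 8.41 to 45.3 CPM (median 27.4) in light 2-cell libraries. All 6 light libraries lay above all 7 controls, as was true of 4.81% of all genes. The difference was 3.58 (SE 0.72, adjusted p = 0.0011), and it too was called in each of the 13 fits without 1 library. Its copy Slc6a20a, 87.1% identical over the aligned transcript, had 0 to 9.80 CPM in control and 0.349 to 8.41 CPM in light libraries (0.13, SE 0.75, adjusted p = 0.935). Sacm1l, which lies on the opposite strand over 21.1% of the Slc6a20b exon bases, was higher as well (2.62, adjusted p = 0.00738). Reads shared with either gene would make the level of Slc6a20b uncertain.

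Slc3a2, the heavy chain, had 38.6 to 146 CPM (median 80.6) in control and 119 to 260 CPM (median 144) in light 2-cell libraries. Control library 8, the highest, reached into the light range. The difference was 1.05 (SE 0.33, adjusted p = 0.0311), and the call was lost under 5 of 9 alternatives, with adjusted p up to 0.0948. Slc7a5 and Slc7a11, a pair of its light chains, had differences of 0.12 (SE 0.37) and -0.80 (SE 0.50), and neither was called. Slc7a6 was at 0 to 4.73 CPM in control and at 1.23 to 72.2 CPM in light libraries, with light libraries 12, 9 and 10 at 72.2, 29.7 and 21.0 CPM and the other 3 at 3.60 CPM or less. Libraries 12, 9 and 10 were also the deepest, with 2867034, 1849322 and 1950316 reads outside the ribosomal pair. Light libraries 14, 15 and 16 had 811743, 832526 and 318177, and the part of depth was not tested. The Slc7a6 difference of 1.93 (SE 0.82) was not called by limma (adjusted p = 0.12), while edgeR on the recovered reads called it (3.19, adjusted p = 0.0195). Slc38a10 had 1.33 to 20.7 CPM in control and 12.6 to 45.0 CPM in light libraries, and its call (1.91, SE 0.65, adjusted p = 0.0491) was lost under all 9 alternatives run.

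At the 4-cell stage Slc6a15 was the member called. It had 0 to 8.73 CPM (median 0.622) in the 6 control and 1.76 to 62.1 CPM (median 26.7) in the 8 light libraries, with overlap between control libraries 2 and 3 and light libraries 11 and 14. The difference was 3.05 (SE 0.83, adjusted p = 0.0470), with 6 of 10 alternatives and 11 of 14 fits without 1 library losing the call. Those 10 include the replicate block, which called no gene at this stage. Without control libraries 1 and 2, which stood apart in the ribosomal ratio and had fewer than 20 Y-linked reads, 5 members were called against the light group: Slc1a5 (3.32, SE 0.70) and Slc6a15 (3.22, SE 0.86) higher, and Slc1a1 (-1.03, SE 0.25), Slc43a3 (-1.48, SE 0.34) and Slc7a6 (-1.41, SE 0.38) lower, with adjusted p of 0.00999 to 0.0379. With all 6 control libraries Slc1a5 had 1.24 to 144 CPM in control and 17.8 to 196 CPM in light embryos and was not called (2.11, SE 0.77, adjusted p = 0.14).

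At the 8-cell stage a proline carrier was lower and a glutamate carrier higher. Slc6a7 had 8.45, 3.71, 2.20 and 31.0 CPM in control libraries 1 to 4, and no read in 7 of 8 light libraries. The light group held 1 read in all against 58 in the control group, a pooled ratio of 164 with a counting interval of 28.3 to 6590. The log2 difference was -2.96 (SE 0.65, adjusted p = 0.00541) and was called in each of the 12 fits without 1 library. Groups that did not overlap were found for 5.61% of all genes at this stage. Slc6a7 was at 12.4 to 92.1 CPM in control 2-cell embryos, and of 5 tested genes of the 2-cell stage 1, Zfp352, was lower in light 8-cell libraries (-5.73, SE 0.85), with the summed ranges given above overlapping. Of 8 trophectoderm markers, Cdx2 and Krt8 had no read in the control group and had reads in the light group, and Elf5 had none in either. The summed list overlapped, at 210.9 to 438.2 CPM in control and 162.8 to 669.3 CPM in light 8-cell libraries, and 2 of 7 tested were called, both higher. The part of these marker genes in the Slc6a7 difference was not tested.

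Slc1a1 had 125.4, 17.1, 70.6 and 151 CPM in control 8-cell libraries 1 to 4 and 119 to 438 CPM (median 287) in the 8 light libraries. Light libraries 10 and 7, the lowest, overlapped control libraries 1 and 4. The difference was 1.89 (SE 0.47, adjusted p = 0.0123), and without control library 2 it was 1.23 and not called. The antisense gene 4430402I18Rik, over 31.9% of the Slc1a1 exon bases, had a like difference (1.86, adjusted p = 0.0111), and one of -1.59 in the blastocyst (adjusted p = 0.0917).

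In the morula a taurine and a glutamate carrier were higher in light, and a broad amino acid carrier and a light chain lower. Slc6a6 had 2.63 to 94.2 CPM (median 39.1) in 13 control and 51.4 to 191 CPM (median 172) in 6 light libraries. The overlap came from light library 9 at 51.4 CPM and control libraries 2 and 26 at 55.3 and 94.2 CPM. The difference was 2.17 (SE 0.55, adjusted p = 0.0351) and stayed called in 14 of 19 fits without 1 library, the other 5 each leaving out a light library. Under 6 of 9 alternatives Slc6a6 was called, and the replicate block, among the 9, called no gene of the whole table at this stage. Slc1a3 had no read in 12 of 13 control libraries and 8.00 CPM in control library 26, against 0 to 26.2 CPM (median 8.42) in light (2.57, SE 0.61, adjusted p = 0.0262). It was not called without light library 3, 5 or 6, with edgeR (adjusted p = 0.182) or on the deposited scale (adjusted p = 0.0568).

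Slc7a6 had 99.3 to 616 CPM (median 347) in control and 86.7 to 255 CPM (median 146) in light morulae. Apart from control libraries 23 and 26, all controls lay above all light libraries. The difference was -1.20 (SE 0.31, adjusted p = 0.0381), with the call kept in 10 of 19 fits without 1 library and under 5 of 9 alternatives. Those 9 include the replicate block, which called no gene at this stage. Slc6a14 had a read in all 13 control morula libraries (4.38 to 130 CPM, median 29.2) and in 4 of 6 light ones (at most 9.15 CPM). Its difference of -2.89 (SE 0.76, adjusted p = 0.0444) stayed called in 5 of 19 such fits and under 5 of the same 9 alternatives. The heavy chain Slc3a2 (0.23, SE 0.30) and the creatine carrier Slc6a8 (-0.85, SE 0.26, adjusted p = 0.0847) were not called.

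In the blastocyst the sodium-coupled carriers Slc38a4 and Slc38a1 and the GABA and taurine carrier Slc6a13 were higher in light embryos. Slc38a4, a carrier of neutral amino acids that is expressed from the paternal copy in embryos, had 1.07, 0 and 1.75 CPM in control libraries 1, 2 and 3 and 31.9 to 110 CPM (median 76.0) in the 6 light libraries. The difference was 5.29 (SE 0.69, adjusted p = 0.000217), called in each of the 9 fits without 1 library and under all 8 alternatives. In pooled reads the ratio was 113, with a counting interval of 38.3 to 548. Slc38a1 had 1 read in the 3 control libraries and 7.08 to 89.6 CPM (median 21.2) in light (4.20, SE 0.98, adjusted p = 0.0312), a call lost in 5 of 9 fits without 1 library. Neither gene overlapped between the groups, as was true of 7.21% of all genes with 3 control libraries.

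Slc6a13 had 1.07, 18.6 and 0 CPM in the control blastocyst libraries and 16.5 to 111 CPM (median 82.9) in light, so control library 2 lay above light library 15. Its difference was 4.18 (SE 0.84, adjusted p = 0.0133), and without control library 1 it was not called. Slc1a1 was lower, at 227.4, 145.9 and 227.8 CPM in control and 40.8 to 91.3 CPM (median 62.6) in light libraries, without overlap (-1.67, SE 0.41, adjusted p = 0.0378). It lost its call in 7 of 9 fits without 1 library, those without each control library among them. Markers of the trophectoderm summed to 9458 to 13350 CPM in the light libraries, above the 941.8, 3971 and 8443 CPM of control libraries 1, 2 and 3. Inner cell mass markers summed to 326 to 565.2 CPM in light, near control library 3 alone. In that library Slc38a4, Slc38a1 and Slc6a13 were at 1.75, 0 and 0 CPM, below every light library. All 6 light and none of the control blastocyst libraries had Y-linked reads of at least 20, and the part of sex or lineage was not tested.

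**Figure D4:**
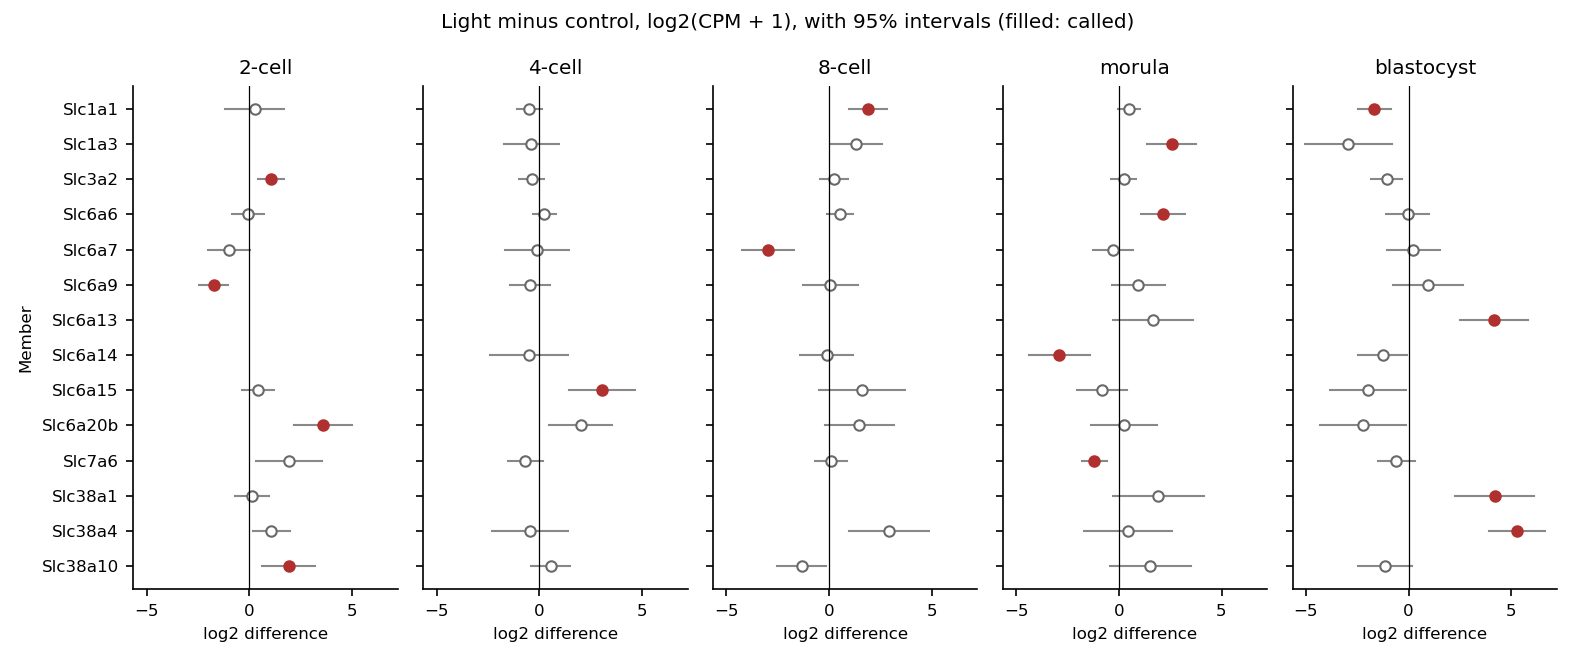
Light minus control difference of log2(CPM + 1) with its 95% interval at each stage (panels) for the 14 transporter genes called at some stage; filled points passed the test and empty rows were not tested. Slc1a1 is higher in light at the 8-cell stage and lower in the blastocyst.

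The difference between light and control changed between neighbouring stages for a glutamate carrier pair. For Slc1a1 it was -0.49 in 4-cell and 1.89 in 8-cell embryos, and the change of 2.38 (SE 0.58) passed the test of the difference (adjusted p = 0.0126), 1 of 33 members against 4.78% of all genes. Between the morula (0.50) and the blastocyst (-1.67) the change was -2.16 (SE 0.50, adjusted p = 0.0153). Slc1a3 went from 2.57 in the morula to -2.93 in the blastocyst, a change of -5.50 (SE 1.19, adjusted p = 0.00989), and these were 2 of 41 members against 1.5% of all genes. With the 1 fit over all libraries the changes of Slc1a1 were not called (adjusted p = 0.0658 and 0.147), and with edgeR that of Slc1a3 was not (adjusted p = 0.0925). Between 2-cell and 4-cell embryos 0 of 39 members were called by limma, against 4.06% of all genes, with 8 at an unadjusted p under 0.05 and 1, Slc7a6, called by edgeR (-4.13, adjusted p = 0.00214). Between 8-cell embryos and morulae 0 of 38 were called by limma and by edgeR, against 2.41% of all genes, with 10 at an unadjusted p under 0.05.

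Slc6a6, the taurine carrier, also sets the scale of some deposited values. The deposited size factor of a library is the median of ratios over CT010467.1, Gm42418 and Slc6a6, and in 7 libraries the ratio of Slc6a6 is that median. These are control 2-cell 8, 9, 10 and 12, control 8-cell 1, control morula 26 and light morula 6. There the deposited value of Slc6a6 was 108.29 each time, while its CPM ran from 57.3 to 164.8, a 2.88-fold range. Comparisons of Slc6a6 on the deposited scale therefore hold its level fixed in 4 of 7 control 2-cell libraries.

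**Figure D5:**
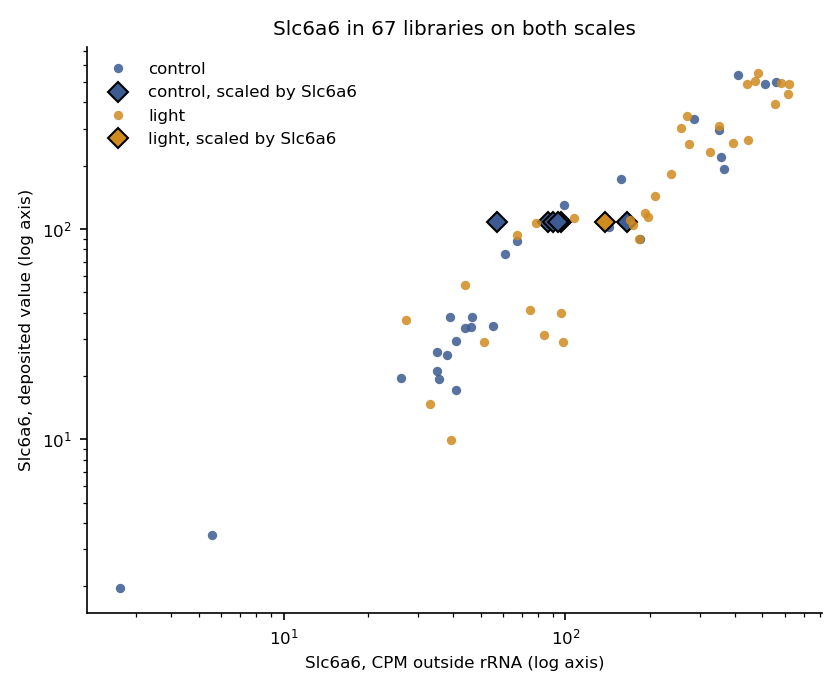
Slc6a6 in each of 67 libraries, as CPM outside ribosomal RNA (x, log axis) and as the deposited value (y, log axis), control in blue and light in orange. The 7 libraries scaled by Slc6a6 (diamonds) form a flat line at 108.29.

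On the CPM scale Slc6a6 averaged 79.7 ± 17.4 (SD, n = 7), 379 ± 147 (n = 6), 258 ± 120 (n = 4), 38.7 ± 22.4 (n = 13) and 88.3 ± 82.6 (n = 3) in control libraries, in order of stage. In light libraries the means were 96.9 ± 83.1 (n = 6), 436 ± 130 (n = 8), 372 ± 159 (n = 8), 151 ± 52.1 (n = 6) and 70.8 ± 28.3 (n = 6). Light and control were not called apart at the 2-cell stage (-0.06, 95% interval -0.84 to 0.73), the 4-cell stage (0.25, -0.30 to 0.80), the 8-cell stage (0.53, -0.12 to 1.19) or the blastocyst (-0.04, -1.08 to 1.00). In the control blastocysts library 1 had 183.4 CPM and libraries 2 and 3 had 35.0 and 46.4 CPM. On the deposited scale the morula difference was 1.95 (SE 0.57) and not called (adjusted p = 0.0807). Over the 10 group means of log2(CPM + 1), the members most like Slc6a6 were Slc7a4 (Spearman's rho 0.65), Slc6a9 (0.59) and Slc1a1 (0.55), as a description of groups that share libraries' depth and scale. Slc7a4 had reads in 27 of 67 libraries and a highest group mean of 6.98 CPM, so its order over the groups rests on few reads.

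The rest of the carriers gave few or no calls. Slc38a9, the arginine sensor of the lysosome, had medians of 0 to 12.3 CPM over the groups and the lysosomal carrier Slc36a1 of 0 to 16.6 CPM. Neither was called in light against control. Slc38a2, the amino acid-regulated system A carrier, had a read in 1 of 7 control 2-cell libraries and in 5 of 6 light blastocyst libraries (median 3.67 CPM), and was not called at any stage. The heavy chain Slc3a1 fell from the 2-cell to the 4-cell control stage, at least 15.0-fold against a floor of 3 reads, and its partner Slc7a9 had a read in at most 1 library of any group. Slc43a1 and Slc43a2, carriers of large neutral amino acids, had group medians of 0 to 10.3 and 1.08 to 33.1 CPM. Slc7a7 had a read in all 3 control blastocyst libraries (6.44 to 18.4 CPM) and in 5 of 6 light ones.

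Genes around the carriers were counted over lists of the pathway. Of 12 tested genes of glycine and serine metabolism, 6 rose and none fell between 2-cell and 4-cell control embryos, where 17.7% of all genes rose and 30.2% fell, with a median of 1.92 beside -0.50 over all genes. From the control morula to the blastocyst 4 of 12 fell and none rose, where 5.39% of all genes fell, led in p by Psat1 (-2.86, SE 0.33) and Phgdh (-2.41, SE 0.35). At the earlier step from 2-cell to 4-cell control embryos Gcsh, of the glycine cleavage system, had a difference of 3.20 (SE 0.27, adjusted p = 1.1e-08). Psat1, of serine synthesis, had one of 2.82 at that step (SE 0.29, adjusted p = 1.43e-07). In light 2-cell embryos 3 of 12 were higher and none lower, where 6.94% and 5.02% of all genes went these ways. Among them were Gcsh (1.61, SE 0.28) and Phgdh (4.38, SE 0.80), the first enzyme of serine synthesis. Phgdh (1.16, SE 0.29) and Dld (3.15, SE 0.94) were the 2 of 11 higher in light 8-cell embryos (4.83% of all genes). Phgdh (1.47, SE 0.38) was the 1 of 11 higher in light blastocysts (1.03%).

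Of 7 tested genes around taurine synthesis, 3 rose and 1 fell between 2-cell and 4-cell control embryos (17.7% and 30.2% of all genes). From the 8-cell stage to the morula 2 of 8 rose (6.23% of all genes), and from the morula to the blastocyst 3 of 8 fell (5.39%). Between 2-cell and 4-cell control embryos Cdo1, which makes cysteine sulfinate, fell by 5.58 on the log2 scale (SE 0.58, adjusted p = 1.38e-07). Bhmt, a betaine methyltransferase, rose by 6.63 at that step (SE 0.56, adjusted p = 8.2e-09). Light 2-cell embryos had 2 of 7 higher, Bhmt (3.01, SE 0.64) and Cth (2.13, SE 0.60), which makes cysteine, and 1 lower. Of all genes 6.94% were higher and 5.02% lower there. In light 8-cell embryos Bhmt (3.17, SE 0.24) and Cth (1.84, SE 0.37) were again the 2 of 7 higher (4.83% of all genes). In light blastocysts Bhmt was lower (-1.99, SE 0.51), the 1 of 7 called (0.865% of all genes were lower).

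Of the genes of the amino acid response, 1 of 12 was called in light 2-cell embryos (8.33%, against 12% of all genes), higher, Nars (1.78, SE 0.40), a tRNA synthetase. The others higher in light were Gars (1.68, SE 0.39), 1 of 11 in 4-cell embryos (1.69% of all genes), and Gpt2 (3.25, SE 0.81), 1 of 11 in morulae (0.847%). In 8-cell embryos they were the asparagine synthetase gene Asns (3.87, SE 0.75) and Sars (2.98, SE 0.82), 2 of 11 (4.83%). Among the genes of amino acid sensing by mTORC1, a kinase complex that drives growth, 5 of 37 were higher and 1 lower in light 2-cell embryos (16.2% called, against 12% of all genes), with the smallest p for Lamtor3 (3.68, SE 0.74) and Sesn2 (1.21, SE 0.26). In light 8-cell embryos 5 of 35 were higher (14.3%, against 8.49% called of all genes), with the smallest p for the lysosomal GTPase gene Rragd (5.44, SE 0.90) and Seh1l (1.36, SE 0.28). Other carriers of amino acids, of mitochondria and lysosomes among them, gave 1 higher of 15 in 2-cell embryos, Serinc1 (2.25, SE 0.60), against 6.94% of all genes. In 8-cell embryos 2 of 15 were higher, Serinc1 (2.15, SE 0.50) and Slc25a12 (2.85, SE 0.84), against 4.83%. In morulae 2 of 16 were higher, Ctns (1.72, SE 0.44) and Pqlc2 (3.30, SE 0.85), against 0.847%. Of the ubiquitin ligases that remove such carriers from the membrane, 1 of 2 fell between 2-cell and 4-cell control embryos (30.2% of all genes fell), Nedd4l rose by 2.73 (SE 0.55) to the morula (6.23% rose) and Nedd4 rose by 4.83 (SE 1.12) to the blastocyst (7.77% rose).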

How the data were processed

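Single-cell SMART-seq2 libraries of 67 cells were sequenced. Submitters' processing notes name HISAT2, HTSeq 0.9.1 and the mm9 build. The authors deposited signal values, made by dividing the reads of 26414 genes by the size factor of each library, although the study's methods speak of RPKM. Multiplied by the size factor, at least 99.9659% of the deposited values of a library were whole reads within 0.01 (13 genes held a value that was not whole, none of them a transporter), and these reads were used. A test for values without counts had been planned, and it was kept as the main test. CPM was computed outside CT010467.1 and Gm42418. Total reads numbered 836011 to 8551674 per library (median 4632053).

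Genes above 1 CPM in at least 3 libraries of a comparison were tested on log2(CPM + 1) with limma 3.58.1 in R 4.3.3 (linear model with a trend), with Benjamini-Hochberg adjustment over all genes. Comparisons were light against control at 5 stages, 4 steps between control stages, and the change of the light effect between stages. Alternatives were a pseudocount of 0.1, no filter, the deposited scale, TMM, quantile normalization, edgeR 4.0.16 quasi-likelihood tests on the recovered reads, 1 fit over all libraries, a replicate block and each library left out. Reads thinned to 300000, control 4-cell libraries 1 and 2 left out and control morula 26 left out were chosen after seeing the data. The test was tried on simulated data, where it missed most genes changed 4-fold, so a gene not called is not shown to be unchanged. Intervals of read ratios are exact, at 95%, and cover counting error only.

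Genes were named by rule: members called in light against control, the 4 largest rises and falls of each control step, the 5 highest per kb of each control stage, members of a fixed role, and up to 2 genes with the smallest p of each pathway list. The members and lists were chosen with earlier results of these data known. Names, exon lengths and overlaps came from GENCODE M21. Closest libraries of a group differed by a chi-square per degree of freedom of at least 6.64, so none were counted as 1.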

Additional observations from a re-analysis of the deposited data

Results flagged for a closer look

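Single libraries were flagged, by the gap to the nearest library on log2(CPM + 1), in 3 of the 29 groups of 4 to 10 libraries examined. Chance flags about 1 in 20 groups of normally spread values, which groups with many zeros are not. Slc3a2 was at 260 CPM in light 2-cell library 14, and at 119 to 148 CPM in the other 5. Slc6a7 was at 0.545 CPM, a single read, in light 8-cell library 8 and at 0 in the other 7. This rule always flags a lone read among zeros, so that flag says nothing of the library. Slc6a6 was at 51.4 CPM in light morula library 9 and at 138 to 192 CPM in the other 5.

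The difference between light and control itself differed between stages for Slc1a1 and Slc1a3. For Slc1a1 it was higher in 8-cell than in 4-cell embryos by 2.38 (SE 0.58, adjusted p = 0.0126 with limma) and lower in blastocysts than in morulae, a change of -2.16 (SE 0.50, adjusted p = 0.0153 with limma). For Slc1a3 the change between morulae and blastocysts was -5.50 (SE 1.19, adjusted p = 0.00989 with limma). Control 8-cell library 2, at 17.1 CPM, held the lowest level of Slc1a1 behind the first of these, and control blastocyst libraries 1 and 2, at 34.3 and 38.7 CPM, the highest levels of Slc1a3 behind the last.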

How the results depend on the processing

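Counts of transporter genes called moved with the processing. In 2-cell embryos 4 were called, and 2 on the deposited scale, with TMM, with quantile normalization and with the replicate block. In 4-cell embryos 1 was called, and 0 with a pseudocount of 0.1, no filter, the deposited scale, quantile normalization, edgeR or the replicate block, but 5 without control libraries 1 and 2. In 8-cell embryos 2 became 1 with thinned reads. In morulae 4 became 2 without a filter, with edgeR or with thinned reads, 1 on the deposited scale and 0 with the replicate block. In blastocysts 4 became 2 without a filter or with thinned reads. Between control 4-cell and 8-cell embryos 1 became 0 without a filter or with the replicate block, 4 on the deposited scale, 2 with 1 fit over all libraries and 3 without control 4-cell libraries 1 and 2. Between control 8-cell embryos and morulae 6 became 0 with the replicate block. Between control morulae and blastocysts 5 became 3 with edgeR, 9 with 1 fit and 0 with the replicate block. For the light effect, 0 became 1 between 2-cell and 4-cell embryos with edgeR, 1 fit, thinned reads or without control 4-cell libraries 1 and 2. Between 4-cell and 8-cell embryos 1 became 4 without those libraries, and between 8-cell embryos and morulae 0 became 1 with 1 fit. The cause was not tested.

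Leaving out 1 library at a time gave 2 to 4 calls in 2-cell, 0 to 2 in 4-cell, 1 to 3 in 8-cell, 0 to 4 in morula and 1 to 4 in blastocyst comparisons of light with control. For control steps it gave 0 to 1 between 4-cell and 8-cell embryos, 5 to 6 to the morula and 3 to 6 to the blastocyst. Slc6a6, not called, turned direction in 2-cell embryos, from -0.06 to 0.24 with edgeR and 0.75 with the replicate block, within -0.41 to 0.23 over libraries left out (0.23 without light 14 and 0.09 without light 16). In blastocysts it went from -0.04 to 0.68 without control 1, 0.15 without light 15 and 0.11 without light 26, with a lowest value of -0.50. Of single genes under the other alternatives, 426 values kept direction and call, 81 lost the call and 2 turned.

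Over all genes, the 4-cell comparison of light with control called 323 genes, and 83 without a filter, 152 with edgeR (46.7% lower against 21.7%), 214 on the deposited scale, 212 with a pseudocount of 0.1, 555 with 1 fit and 0 with the replicate block. Blastocysts called 268, and 668 on the deposited scale (93.7% lower), 91 without a filter, 121 with a pseudocount of 0.1, 124 with thinned reads, 164 with edgeR (64.0% lower against 45.5%) and 413 with 1 fit. Morulae called 257, and 1444 with 1 fit, 0 with the replicate block, 320 with quantile normalization (71.9% lower against 46.7%) and 179 on the deposited scale (69.3% lower). The 4-cell to 8-cell control step called 254, and 833 on the deposited scale (81.8% lower against 32.3%), 1191 with 1 fit, 632 without control 4-cell libraries 1 and 2, 92 without a filter, 151 with a pseudocount of 0.1 and 63 with the replicate block. Lower calls were 48.9% against 62.9% at the 2-cell to 4-cell step and 57.8% against 41.0% at the morula to blastocyst step with quantile normalization. The 8-cell to morula control step called 2385, and 4146 with 1 fit and 0 with the block, and the morula to blastocyst step 2068, and 3762, 1231 with edgeR and 0 with the block. For the light effect, 818 became 503 with thinned reads (2-cell to 4-cell), 830 became 1326 without control 4-cell libraries 1 and 2 (4-cell to 8-cell), 444 became 693 with 1 fit (8-cell to morula) and 271 became 601 with 1 fit and 161 with thinned reads (morula to blastocyst).

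Replicate numbers did not pair libraries: same-numbered libraries correlated at -0.067 to 0.062, and the block moved the 2-cell count over all genes from 2164 to 1119. No paired analysis was possible because fewer than 2 numbers were shared for 8-cell and blastocyst comparisons of light with control and for the 2-cell to 4-cell control step. Depth limits the low members, for which a few reads decide the level.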
